A study of Danio rerio with 13 samples.

Results

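The genes that build nucleotides and supply them with one-carbon units were followed across zebrafish leukemias by poly(A) RNA sequencing. The set holds the enzymes of purine ring synthesis, the guanine branch, pyrimidine synthesis, deoxynucleotide supply, salvage, folate metabolism and serine synthesis, chosen by symbol from a list of 38. Of the 38 symbols, 29 matched exactly 1 Ensembl identifier each among the 32105 in the count table, and all 29 passed the filter on low counts. A further 8 identifiers carry the names RRM2, IMPDH1, CTPS1 and MTHFD1, 2 identifiers to each name, so they stand for listed paralogs that could not be told apart, and they are described separately. The symbols prps1a, dut and nme2b.1 had no match and were not analysed here.

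Each leukemia came from a double transgenic fish line. One transgene drives human MYC from the promoter of rag2, a recombination gene of B and T lymphoid precursors, and the other drives eGFP from the promoter of lck, a kinase gene of T cells. Leukemia cells were sorted as GFP-positive cells from the total body, and all 13 libraries (hMYC-1 to hMYC-6 and hMYC-8 to hMYC-14) belong to 1 group of acute lymphoblastic leukemias, with no normal cells to set them against. The labels give neither the age of the fish nor whether the libraries came from separate fish, so the p-values below measure the spread between these libraries. The sample descriptions carry a letter the labels do not explain, d for hMYC-9 to hMYC-14 and c for the lower numbers. The column of hMYC-1 totalled 51808498 counts, against 51478946 for the sum of hMYC-10 to hMYC-14, and among genes with a sum of 1 to 9 in those 5 libraries 53.7% had exactly that sum in hMYC-1. It was left out, which leaves 6 libraries of letter d and 6 of letter c with totals of 8166453 to 12297780 counts. Levels are given as log2 CPM, for which counts were scaled to a normalized library size (TMM) and a prior count of 2 was added.

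Nucleotide synthesis starts from PRPP, an activated ribose. Purines are assembled on it ring atom by ring atom, with folate-borne one-carbon units added on the way, and pyrimidines are made as a ring first and joined to it afterwards. Ribonucleotide reductase turns ribonucleotides into deoxynucleotides for DNA, and thymidylate synthase uses a folate unit to make the thymine nucleotide. Serine, made from a glycolytic intermediate or taken up, is the main donor of those units, and many genes of these pathways are known as MYC targets in mammals, from which the roles named below are mainly known. MYC-driven lymphoid leukemias divide fast, and drugs against folate and nucleotide synthesis are standard in acute lymphoblastic leukemia.

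The steps differed in how far their genes varied from leukemia to leukemia. Over 12 libraries the SD of log2 CPM had a median of 0.76 over the 29 genes, beside 0.55 over all 13663 genes tested. By this measure 17 of the 29 lay above the median SD of all genes. The 6 genes of the purine ring had SDs of 0.24 to 0.68, the 4 of deoxynucleotide supply 0.91 to 1.27, the 4 of folate metabolism 0.83 to 1.49 and the 3 of serine synthesis 1.11 to 2.65. In all, 10 genes had an SD under 0.5 and 11 an SD of 1 or more. The purine ring genes spanned 1.76-fold (ppat) to 5.13-fold (atic) between their lowest and highest leukemia, and the 4 folate and 3 serine genes with 1 identifier each spanned at least the 8.69-fold of shmt2. Because bulk RNA of sorted cells was measured, fewer cells of a type and less RNA per cell cannot be told apart.

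**Figure D1:**
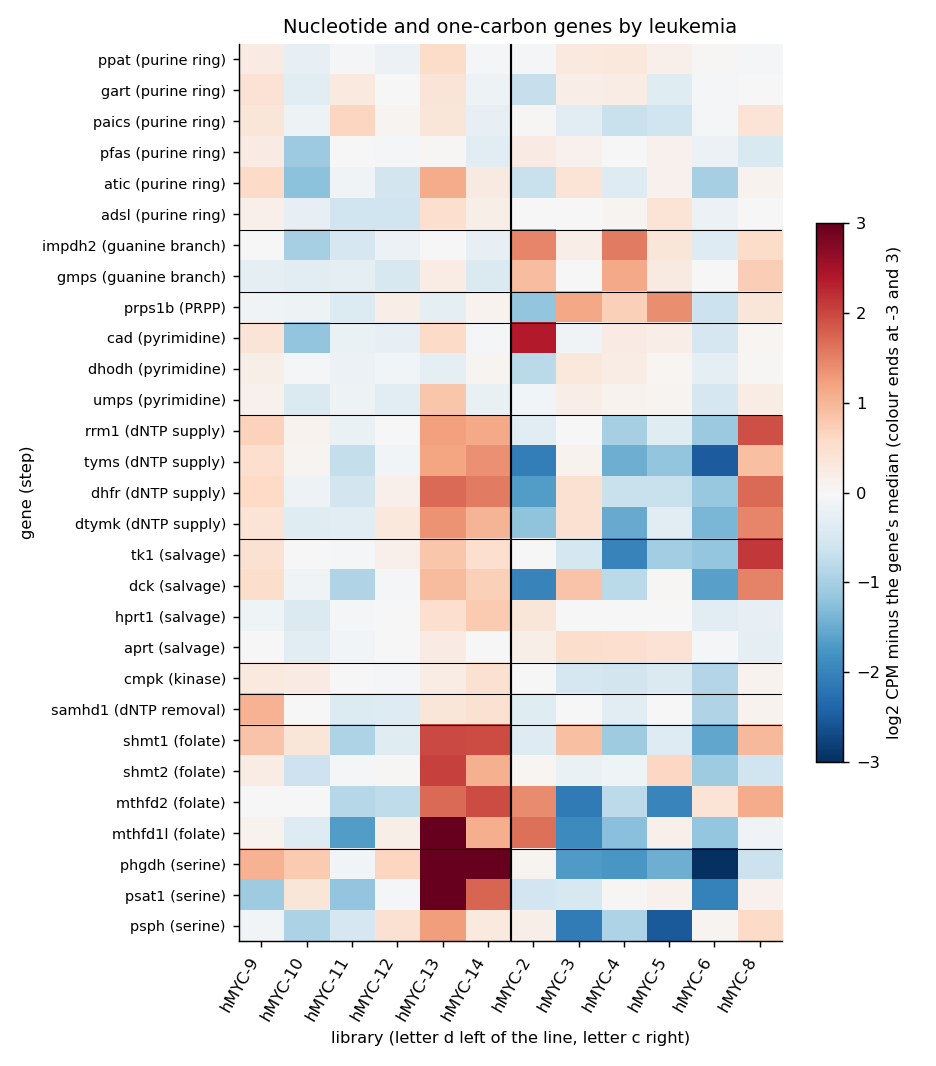
Level of 29 nucleotide and one-carbon genes in 12 leukemias, as log2 CPM minus the gene's median over the 12 libraries (colour, ends at -3 and 3), with the 6 libraries of letter d left of the vertical line and the 6 of letter c right of it. The rows of the purine ring stay pale, while phgdh and psat1 of serine synthesis are highest in hMYC-13 and hMYC-14. The row of psph departs most in hMYC-5, downward. Upward, cad stands out in hMYC-2 alone, and it is lowest in hMYC-10.

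In the purine ring, ppat, which commits PRPP to purine synthesis, had the smallest SD of the set. Its level was 6.63 in hMYC-10, the lowest library, 6.89 at the median and 7.45 in hMYC-13, the highest, a span of 1.76-fold. The gene gart encodes an enzyme of several early ring steps and had a lowest, median and highest level of 5.11, 5.80 and 6.24. For adsl, which cleaves adenylosuccinate, the same levels were 6.0, 6.59 and 7.08. The genes paics and pfas, for other ring steps, had SDs of 0.41 and 0.38. The exception was atic, whose enzyme closes the ring, with 4.60 in hMYC-10 and 6.95 in hMYC-13, a span of 5.13-fold and an SD of 0.68. The median r over the 15 pairs of these 6 genes was 0.374, beside -0.0019 over all gene pairs, and 13.3% of their pairs lay above 0.7, beside 2.78% of all gene pairs, as a description over 12 libraries that share their depth and scaling.

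The salvage genes of the purine bases and a pyrimidine gene were about as even. The level of aprt, which salvages adenine, was 6.14 at the lowest, 6.48 at the median and 7.01 at the highest, with an SD of 0.29. The SD of hprt1, which salvages hypoxanthine and guanine, was 0.35. That of cmpk, a kinase that turns UMP and CMP into diphosphates, was 0.41, with levels of 4.47 in hMYC-6, 5.35 at the median and 5.80 in hMYC-14. For dhodh, the mitochondrial enzyme of pyrimidine synthesis, the lowest, median and highest levels were 4.41 (hMYC-2), 5.22 and 5.53 (hMYC-3), with an SD of 0.30.

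The guanine branch moved as a pair. The gene impdh2 encodes IMP dehydrogenase, which commits purines to guanine, and had levels of 5.40 in hMYC-10, 6.39 at the median and 7.96 in hMYC-4. The gene gmps, for the next enzyme, had 6.05 in hMYC-12, 6.52 at the median and 7.65 in hMYC-4. Both were highest in hMYC-4 and next highest in hMYC-2, where impdh2 reached 7.85 and gmps 7.43. Across the 12 libraries their levels had a Pearson's r of 0.893 (permutation p = 0.00014, adjusted p = 0.00056). By rank, rho was 0.832, with a permutation p of 0.0015 and 0.0062 on adjustment. Without hMYC-2 and hMYC-4, which lie farthest from the median of impdh2, r was 0.708 (permutation p = 0.022). Within letter d r was 0.304 (exact permutation p = 0.540) and within letter c 0.929 (exact permutation p = 0.0069), so the relation was not detectable within the 6 libraries of letter d, where both genes spanned less. Within letter c, impdh2 in hMYC-2 and hMYC-4 lies apart from the 6.95 (hMYC-8) or less of the rest. Of the IMPDH1 identifiers, ENSDARG00000029524 was highest in hMYC-2, at 8.38 beside a median of 6.99, and ENSDARG00000042336 had 0 to 88 counts and did not pass the filter.

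Pyrimidine synthesis was set apart by cad in 1 leukemia, the case for which this gene was singled out. The gene cad (ENSDARG00000041895) encodes the enzyme that carries out the opening steps of the pyrimidine ring. It had 11581 counts and a level of 10.91 in hMYC-2, and between 7.36 (hMYC-10) and 9.11 (hMYC-13) in the other 11 libraries. The level in hMYC-2 was thus 2.43 log2 units above the median of the others and 1.80 above the next highest. With library totals in place of TMM scaling it was 1.94 above the median of the others. Under that scaling the median gene of hMYC-2 itself departed by -0.48. The genes downstream did not stand out there, with umps, which makes UMP, at 5.71 in hMYC-2 beside a median of 5.79, and dhodh at its lowest. The CTPS1 identifiers, for the enzyme that makes cytidine nucleotides, had levels in hMYC-2 of 8.77 (ENSDARG00000030700, the lowest of its 12) and 3.82 (ENSDARG00000098386, median 4.53).

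Since the level of hMYC-2 lies apart from the rest, the relation of cad to its partners was computed over the other 11 libraries. There r was 0.776 with ppat (permutation p = 0.0044). For umps those 11 libraries still fell into clusters, with hMYC-13 apart at 6.63, so no r over them is given. Within letter d r was 0.801 with umps (exact permutation p = 0.076) and 0.862 with ppat (exact permutation p = 0.026). Within letter c, hMYC-2 included, it was 0.059 with umps (exact permutation p = 0.910) and -0.38 with ppat (exact permutation p = 0.572). The limit on clusters was not applied within a letter. In letter d hMYC-13 lies apart for umps there too, with the next highest at 5.92 (hMYC-9). For cad hMYC-10 lies apart in that letter, at 7.36 with the next lowest at 8.29 (hMYC-12). The relations of cad to umps and ppat were among 5 of 13 computed in which the libraries fell into clusters. No value adjusted over the pairs is therefore given for them.

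In hMYC-2, 4 of the 29 genes lay more than 1 log2 unit above the median of the other 11 libraries, beside 14.7% of all genes, a share of 13.8% that is near the background. They were cad, mthfd1l (1.76), impdh2 (1.47) and mthfd2 (1.42). Another 5 lay more than 1 unit below it, beside 13.9% of all genes, namely tyms (-2.15), dck (-2.05), dhfr (-1.83), dtymk (-1.52) and prps1b (-1.27). The share below, 17.2%, is also near the background. The deoxynucleotide gene rrm1 lay at -0.33 and the thymidine salvage gene tk1 at 0.03 relative to the others' median. With TMM scaling the leukemia also had the highest ribosome biogenesis score of the 12, the mean log2 CPM of 15 nucleolar and ribosome assembly genes, at 8.43. The sum of their CPM, scaled by library totals, was highest in hMYC-13 instead, at 8374 CPM. That sum differs from the score in both scaling and summary, and it weighs abundant genes more.

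Against the ribosome biogenesis score, edgeR's quasi-likelihood test called 1 of 29 genes (3.45%), cad, beside 0.0439% of all genes, or 6 genes. That gene was singled out for its level in hMYC-2, the library with the highest score, so the call is no independent support. The slope of cad was 0.78 ± 0.11 (SE) log2 units per SD of the score (adjusted p = 0.044 over all genes). Without hMYC-2 the slope was 0.44 (adjusted p = 0.381), and the call was lost in 16 of 20 alternative settings. DESeq2 also called cad alone, beside 0.776% of all genes. No other member passed, and 6 of 29 had an unadjusted p under 0.05 (20.7%, beside 8.39% of all genes), among them impdh2 at 0.51 ± 0.18 and mthfd1l at 0.92 ± 0.32.

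**Figure D2:**
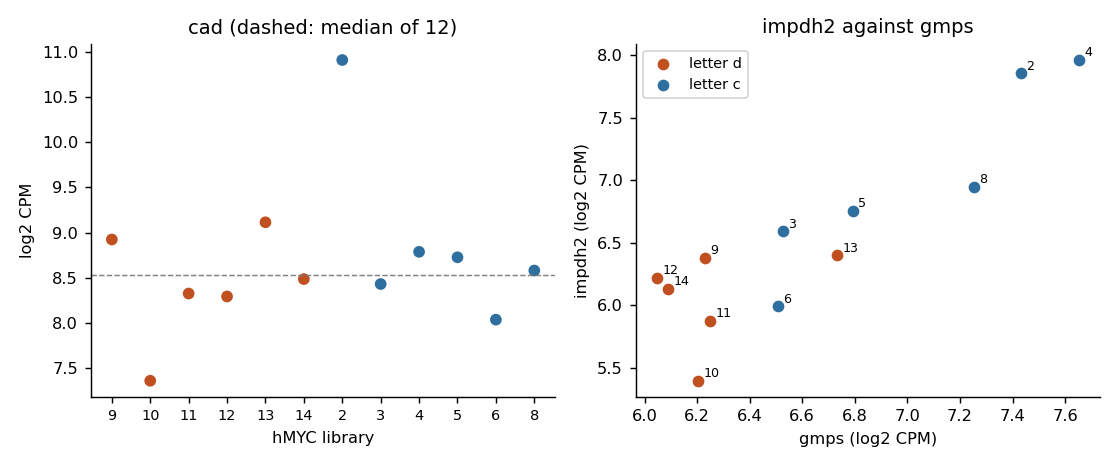
Left, log2 CPM of cad in each library (dashed line, median of 12); right, log2 CPM of impdh2 against gmps, with points numbered by library and coloured by letter (orange d, blue c). For cad, hMYC-2 sits at 10.91 and the other libraries at 7.36 to 9.11; on the right, hMYC-4 and hMYC-2 lie at the upper end of both genes.

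The genes of deoxynucleotide supply went together across the leukemias. They are rrm1, the large subunit of ribonucleotide reductase, tyms, thymidylate synthase, dhfr, which restores the folate that tyms uses, and dtymk, which phosphorylates dTMP. The median r over their 6 gene pairs was 0.930, the lowest being 0.886, and 100% of pairs lay above 0.7, as a description. Of these, tyms had the largest SD, 1.27, with 46 to 887 counts and levels of 2.54 in hMYC-6, 5.03 at the median and 6.40 in hMYC-14. The level of dhfr was 1.42 in hMYC-2, 3.09 at the median and 4.80 in hMYC-13. Of the salvage genes, dck, which phosphorylates deoxycytidine, spanned a like range, with 2.37 in hMYC-2, 4.38 at the median and 5.86 in hMYC-8. Between tyms and dhfr r was 0.947 and rho 0.958 (permutation p = 3e-05 and adjusted p = 0.00024 for each). Without hMYC-2 and hMYC-6 r was 0.944 (permutation p = 0.00015), and it was 0.968 within letter d and 0.958 within letter c (exact permutation p = 0.0056 for each).

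The proliferation score, the mean log2 CPM of 14 mitosis genes that hold none of the set, was 4.02 in hMYC-4, the lowest library, and 7.15 in hMYC-8, the highest. Against this score, 3 of 29 genes rose and none fell at an adjusted p under 0.05 (10.3%), beside 1.58% of all genes, 1.57% rising and 0.0146% falling. They were tk1, which salvages thymidine and is known in mammals for its rise in S phase, rrm1 and dtymk. At an unadjusted p under 0.05 there were 8 of 29 (27.6%, beside 6.15% of all genes), the others being dhfr, dck, tyms, shmt1 and phgdh, all with positive slopes. By DESeq2 7 of 29 were called, beside 2.5% of all genes. The median slope of the 29 was 0.21 log2 units per SD of the score and that of all genes -0.0069.

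The level of tk1 was 3.70 in hMYC-4, 5.70 at the median and 7.82 in hMYC-8, which lay 1.29 above the next library. Its slope was 0.96 ± 0.13 (SE) log2 units per SD of the score (edgeR, adjusted p = 0.0013). For rrm1 the lowest, median and highest levels were 5.25 (hMYC-6), 6.37 and 8.31 (hMYC-8), with a slope of 0.78 ± 0.13 (edgeR, adjusted p = 0.0053). The level of dtymk was 1.87 in hMYC-4, 3.37 at the median and 4.84 in hMYC-8, with a slope of 0.90 ± 0.16 (edgeR, adjusted p = 0.011). All 3 were therefore highest in the leukemia with the highest mitosis genes, and tk1 and dtymk were lowest in the one with the lowest.

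The calls rested on the ends of the score. Without hMYC-8 none of the 29 passed (adjusted p of 0.099 for tk1, 0.127 for rrm1 and 0.070 for dtymk), beside 0.527% of all genes, with slopes of 0.91, 0.76 and 1.03 and 13 of 29 genes at an unadjusted p under 0.05, beside 9.43% of all genes. Without hMYC-4 dtymk missed the threshold (adjusted p = 0.054). Without both libraries none passed, beside 0.0% of all genes. Within each letter none passed either, beside 0.0% of all genes within letter d and 0.724% within letter c, with slopes of tk1 of 0.51 within letter d (adjusted p = 0.377) and 0.97 within letter c (adjusted p = 0.055).

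The small subunit of ribonucleotide reductase went with the large one. Of the identifiers named RRM2, ENSDARG00000078069 had 257 counts and a level of 4.64 in hMYC-4, a median of 6.86, and 4915 counts and a level of 8.65 in hMYC-8. Its slope was 1.07 ± 0.16 per SD of the proliferation score (edgeR, adjusted p = 0.0035), and it was 1.2 without hMYC-8 (adjusted p = 0.037). Without both hMYC-4 and hMYC-8 the slope was 1.51 and missed the threshold (adjusted p = 0.149). It was 1.02 within letter d (adjusted p = 0.229) and 0.97 within letter c (adjusted p = 0.029). Set against rrm1, tyms, tk1 and samhd1, a choice made after its counts were seen, it had r of 0.940, 0.842, 0.954 and 0.560, with permutation p adjusted over these 4 of 2e-05, 0.00081, 2e-05 and 0.057. The other RRM2 identifier, ENSDARG00000020711, had only 1 to 37 counts. The level of samhd1, whose enzyme breaks deoxynucleotides down, was 2.10 in hMYC-6, 2.99 at the median and 4.03 in hMYC-9.

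**Figure D3:**
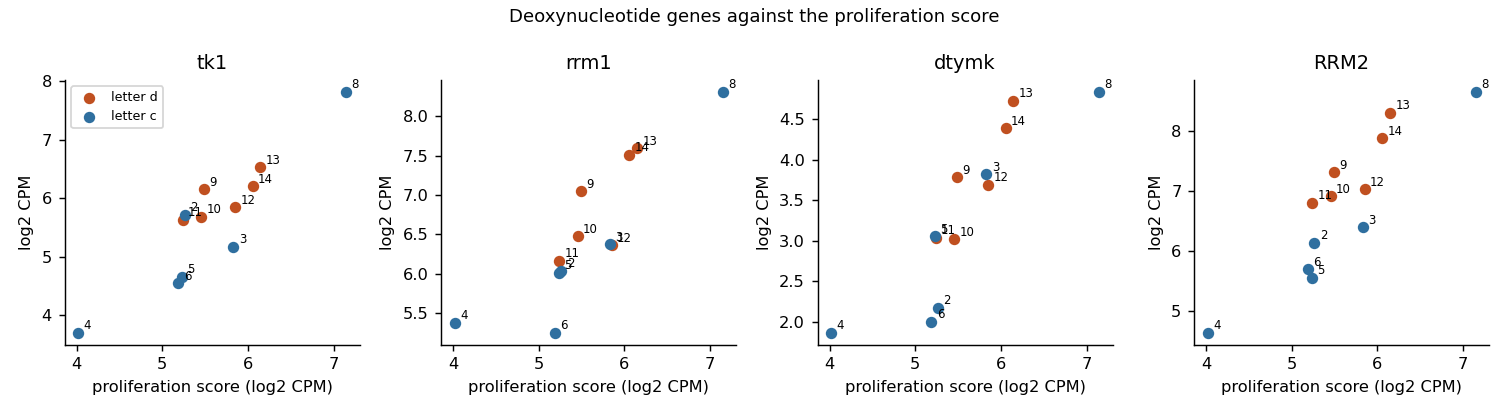
Log2 CPM of tk1, rrm1, dtymk and the RRM2 identifier ENSDARG00000078069 against the proliferation score (mean log2 CPM of 14 mitosis genes), each point a library with its number (orange letter d, blue letter c). In each panel hMYC-8 is highest, at a score of 7.15, and hMYC-4 has the lowest score, 4.02.

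Serine synthesis had the largest spread of the set by SD, with 2 leukemias at its upper end. By the median absolute deviation, which such ends move less, its genes had a median of 0.54, beside 0.95 for folate metabolism and 0.70 for deoxynucleotide supply. The gene phgdh encodes the first enzyme of serine synthesis from glycolysis. It had 1981 counts in hMYC-13 and 803 in hMYC-14, against 1 to 76 in the other 10 libraries, and its level was 7.38 and 6.25 in those 2 libraries and between -1.83 (hMYC-6) and 2.56 (hMYC-9) in the others. The next enzyme, psat1, was also highest there, at 5.71 in hMYC-13 and 4.37 in hMYC-14, against 0.61 (hMYC-6) to 3.0 (hMYC-10) in the others. The last enzyme, psph, followed less closely, with 7.30 in hMYC-13 and 6.34 in hMYC-14, against 3.52 (hMYC-5) to 6.61 (hMYC-8) in the others, so that its level in hMYC-14 lay inside the range of the rest. Over the 10 libraries other than hMYC-13 and hMYC-14, r between phgdh and psat1 was 0.361 (permutation p = 0.308) and between phgdh and shmt2 0.380 (permutation p = 0.280).

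Mitochondrial folate genes were high in the same pair of leukemias. The gene shmt2 encodes the mitochondrial enzyme that splits serine into glycine and a one-carbon unit, and had 6.66 in hMYC-13 and 5.68 in hMYC-14, against 3.54 (hMYC-6) to 5.23 (hMYC-5) in the others. Its level in both lay above all others. For mthfd2, which oxidizes the folate-bound unit in mitochondria, the levels were 8.03 in hMYC-13 and 8.28 in hMYC-14, against 4.20 (hMYC-3) to 7.74 (hMYC-2) in the others. The gene mthfd1l, whose enzyme releases the unit as formate, had 6.55 in hMYC-13 and 4.35 in hMYC-14, against 1.35 (hMYC-3) to 4.92 (hMYC-2). The leukemia with high cad, hMYC-2, thus had the highest mthfd2 of the others and an mthfd1l level above that of hMYC-14. Between these 2 genes r was 0.693, with a permutation p of 0.012 that became 0.031 on adjustment. The rank correlation rho was 0.685, with a permutation p of 0.017 and 0.039 on adjustment. Without hMYC-3 and hMYC-5 r was 0.759 (permutation p = 0.0087), and it was 0.806 within letter d (exact permutation p = 0.033) and 0.570 within letter c (exact permutation p = 0.232). Within letter d, however, mthfd2 in hMYC-13 and hMYC-14 lies apart from the 5.48 (hMYC-11) to 6.33 (hMYC-10) of the rest. The r of that letter thus mainly compares those sets of libraries. The adjusted p passed 0.05 when hMYC-3 (0.103), hMYC-4 (0.051), hMYC-10 (0.064) or hMYC-13 (0.096) was left out. Without both hMYC-13 and hMYC-14 the libraries fell into clusters for this pair, so no r is given. For shmt2 and mthfd2 r was 0.308 over the 12 libraries (permutation p = 0.336, adjusted p = 0.448) and -0.45 without hMYC-13 and hMYC-14, a choice made after seeing the data (permutation p = 0.187, adjusted p = 0.317).

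The cytosolic enzyme shmt1 was likewise highest in hMYC-13 (7.67) and hMYC-14 (7.64), against 4.13 (hMYC-6) to 6.67 (hMYC-8) in the others. In levels shmt1 went with deoxynucleotide genes as well. Over the 21 pairs of rrm1, tyms, dhfr, dtymk, tk1, dck and shmt1, the median r was 0.886 and the lowest 0.601. Over the 15 pairs of phgdh, psat1, psph, shmt2, mthfd2 and mthfd1l, the median was 0.693 and the lowest 0.256. Both groupings were made after the values were seen, so these r describe them and do not test them. The 15 pairs include those of phgdh, for which hMYC-13 and hMYC-14 lie apart from the other libraries. Of the identifiers named MTHFD1, the cytosolic folate enzyme, ENSDARG00000040492 had an SD of 0.31 and levels of 7.22 to 8.18, so it varied about as little as the purine ring, and ENSDARG00000018266 had 0 to 78 counts.

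**Figure D4:**
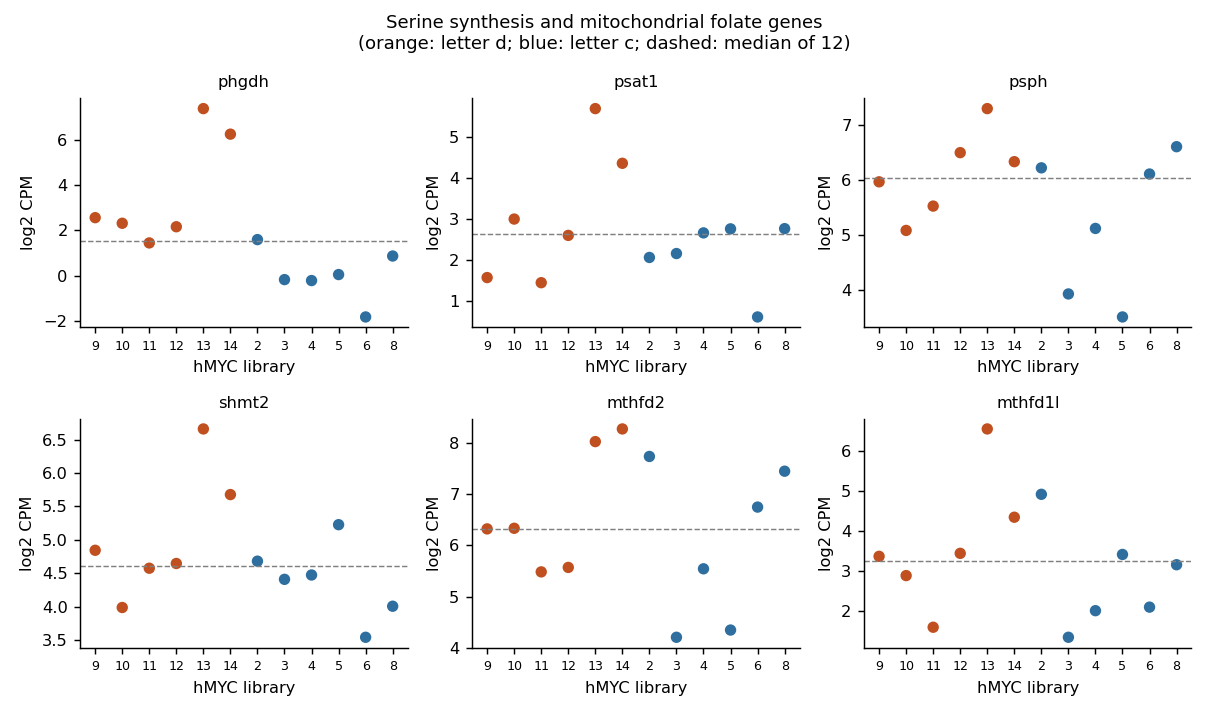
Log2 CPM of 3 serine synthesis genes (top) and 3 mitochondrial folate genes (bottom) in each of 12 libraries (orange letter d, blue letter c, dashed line the median of 12). The points of hMYC-13 and hMYC-14 are the highest for phgdh, psat1, shmt2 and mthfd2, and phgdh reaches 7.38 and 6.25 there against 2.56 at most elsewhere.

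Counted by leukemia, hMYC-13 stood highest. In it 13 of the 29 genes (44.8%) lay more than 1 log2 unit above the median of the other 11 libraries, beside 10.1% of all genes, and 0 lay as far below, beside 12.9% of all genes. The departures were 5.94 for phgdh, 3.39 for mthfd1l, 3.1 for psat1, 2.34 for shmt1, 2.09 for shmt2 and 1.87 for dhfr. In hMYC-14 the count was 10 of 29 (34.5%), beside 7.88% of all genes, led by phgdh (4.81), shmt1 (2.31) and mthfd2 (1.95). All 10 of these were also among the 13 of hMYC-13, and the same overlap over all genes was not computed. In hMYC-14 0 lay as far below, beside 8.31% of all genes. With TMM scaling the ribosome biogenesis score of hMYC-13, 8.27, was the second highest, and that of hMYC-14 was 7.73. The proliferation scores of hMYC-13 and hMYC-14, 6.14 and 6.05, came next after that of hMYC-8.

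The summed marker level of erythroid cells was highest in hMYC-14, at 156 CPM over 4 matched of 7 listed genes, against 2.56 to 98.4 CPM elsewhere, and so was that of myeloid cells, at 255 CPM over 6 of 10 genes, against 51.4 to 218 CPM. The embryonic globin gene hbae1.1 was at 0 in every library. In hMYC-13 the same sums were 16.1 and 90.0 CPM, and phgdh was higher there than in hMYC-14. The part of other cells in the levels of hMYC-14 was not tested.

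In hMYC-8, 7 of 29 genes (24.1%) lay more than 1 unit above the others, beside 8.88% of all genes, and they were tk1 (2.14), rrm1 (1.95), dhfr (1.85), dtymk (1.79), dck (1.53), shmt1 (1.33) and mthfd2 (1.13). None lay as far below, beside 8.47% of all genes. No serine synthesis gene was among them. The gene phgdh lay at -0.73 relative to the others' median, psat1 at 0.17 and psph at 0.64, the second highest psph level of the 12.

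In hMYC-6, 12 of 29 genes (41.4%) lay more than 1 unit below the others, beside 7.07% of all genes, from phgdh (-3.42), tyms (-2.58) and psat1 (-2.06) to atic and shmt2 (-1.10 each), and 0 lay as far above, beside 5.91% of all genes. Its proliferation score was 5.19, the second lowest. The exocrine pancreas markers summed to 79.8 CPM in hMYC-6, over 4 of 5 listed genes, against 0.64 to 37.5 CPM elsewhere, and their part in these levels was not tested. In hMYC-12 no member departed by more than 1 unit either way, beside 12.2% of all genes above and 3.27% below. 

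Departures in the remaining leukemias ran in both directions, except in hMYC-10 and hMYC-11, where they ran downward only. In hMYC-5, hMYC-10 and hMYC-11 the share below, at 17.2%, 17.2% and 10.3% of the 29 genes, was near or under that of all genes. In hMYC-4, 6 of 29 genes lay more than 1 unit below the others, beside 9.05% of all genes, led by tk1 (-2.02), dtymk (-1.83) and phgdh (-1.81), and only impdh2 (1.58) and gmps (1.15) lay as far above, beside 15.6% of all genes. In hMYC-5, 5 lay below, beside 13.2% of all genes, led by psph (-2.60) and mthfd2 (-1.99), and prps1b (1.49) lay above, beside 11.9%. In hMYC-3, 4 lay below, beside 9.91% of all genes, namely psph (-2.18), mthfd2 (-2.13), mthfd1l (-2.02) and phgdh (-1.77), while prps1b (1.26) and shmt1 (1.25) lay above, beside 12.3%. Low psph and mthfd2 together with high prps1b, each past 1 unit, was thus shared by hMYC-3 and hMYC-5. This combination was picked after the values were seen. In hMYC-4 the same genes went the same way within 1 unit, at -0.99, -0.79 and 0.82. In hMYC-10, 5 lay below, beside 14.5% of all genes, among them atic (-1.34), cad (-1.22) and pfas (-1.10) of the ring-building steps, and 0 above, beside 7.82%. In hMYC-11, 3 lay below, beside 14.8% of all genes, and 0 above, beside 5.09%. In hMYC-9, 3 lay above, beside 4.79% of all genes, namely shmt1 (1.22), phgdh (1.12) and samhd1 (1.05), and psat1 (-1.09) lay below, beside 12.7%. By gene, 5 of 29 had a highest library at least 1 log2 unit above the next, beside 7.55% of all genes: cad in hMYC-2, tk1 in hMYC-8, and phgdh, psat1 and mthfd1l in hMYC-13. Of these 5, cad was singled out beforehand for its level in hMYC-2, so the count is a description.

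Whether the genes follow the B or the T character of a leukemia was asked with a B minus T score, the mean log2 CPM of 12 B genes minus that of 18 T genes, whose lowest value was -7.77, in hMYC-11, and whose highest was 2.39, in hMYC-5. No groups were made from it for the tests. Within letter c, however, the score was 0.20 to 2.39 in hMYC-3, hMYC-4 and hMYC-5 and -5.78 to -4.54 in hMYC-2, hMYC-6 and hMYC-8. No library of that letter lay between, so slopes within letter c compare those sets of libraries. The T genes summed to 826 to 9288 CPM in the 12 libraries and the B genes to 17.9 to 4106 CPM. In hMYC-9, hMYC-10 and hMYC-11 the B genes summed to 39.1, 28.1 and 17.9 CPM, below the myeloid sums of 87.1, 218 and 104 CPM in the same libraries. By edgeR's quasi-likelihood test 3 of 29 genes (10.3%) were called, 2 rising and 1 falling with the B score, beside 13.2% of all genes (8.07% upward and 5.12% downward). The share is thus near the background. At an unadjusted p under 0.05 there were 5 of 29 (17.2%, beside 27.2% of all genes), and DESeq2 called 5 of 29, beside 21.9% of all genes. Of the 7 tested identifiers with shared names 0 were called, with 1 at an unadjusted p under 0.05. Without hMYC-2, 1 of 8 was called, upward (edgeR, adjusted p = 0.011), beside 1412 of all 14026 genes upward.

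The gene prps1b, which makes PRPP, rose most. Its levels were 6.39, 6.16 and 5.72 in hMYC-5, hMYC-3 and hMYC-4, the 3 libraries with the highest B minus T score, and 3.82 (hMYC-2) to 5.36 (hMYC-8) in the others. For prps1b those 3 libraries lay above the rest, and the share of all genes that part them in this way was not computed. The slope was 0.58 ± 0.12 (SE) log2 units per SD of the score (edgeR, adjusted p = 0.0056). It was 0.65 with the letter as a covariate (adjusted p = 0.020), 0.25 within letter d (adjusted p = 0.793) and 0.80 within letter c (adjusted p = 0.047).

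The other called genes moved little. For aprt the slope was 0.23 ± 0.07 (edgeR, adjusted p = 0.034). For paics, whose lowest levels were 6.70 in hMYC-4, 6.76 in hMYC-5 and 7.06 in hMYC-3 and whose highest was 8.01 in hMYC-11, the slope was -0.31 ± 0.09 (edgeR, adjusted p = 0.048). Both calls were lost when hMYC-3, hMYC-4 or hMYC-5 was left out (adjusted p of 0.085 to 0.181) and with the letter as a covariate (0.090 for aprt and 0.123 for paics). Over all alternative settings the call of aprt held in 10 and was lost in 13. That of paics held in 8 and was lost in 15. Neither passed within letter d (0.841 and 0.920) or within letter c (0.165 and 0.141). Within letter d 0 of 29 genes passed, beside 0.0179% of all genes, and within letter c 3 of 28 passed, beside 9.8% of all genes, a share near the background. Those 3 were prps1b, mthfd2 and psph. Within letter c the slope of mthfd2 was -1.41 ± 0.15 (edgeR, adjusted p = 0.0053) and that of psph -1.15 ± 0.18 (edgeR, adjusted p = 0.013). Both rest on the sets of libraries given above for that letter. Within letter d both slopes were positive, 0.84 for mthfd2 (edgeR, adjusted p = 0.878) and 1.0 for psph (edgeR, adjusted p = 0.463), and the difference between the letters was not tested. No relation of this score to the proliferation score was detectable. Its r was -0.22, with a permutation p of 0.490 (0.736 adjusted over 3 relations of scores), its rho was -0.084, with a permutation p of 0.798 (0.991 adjusted), and without hMYC-3 and hMYC-5 r was -0.30. Within letter d r was 0.764 (exact permutation p = 0.088) and within letter c -0.34 (exact permutation p = 0.556).

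**Figure D5:**
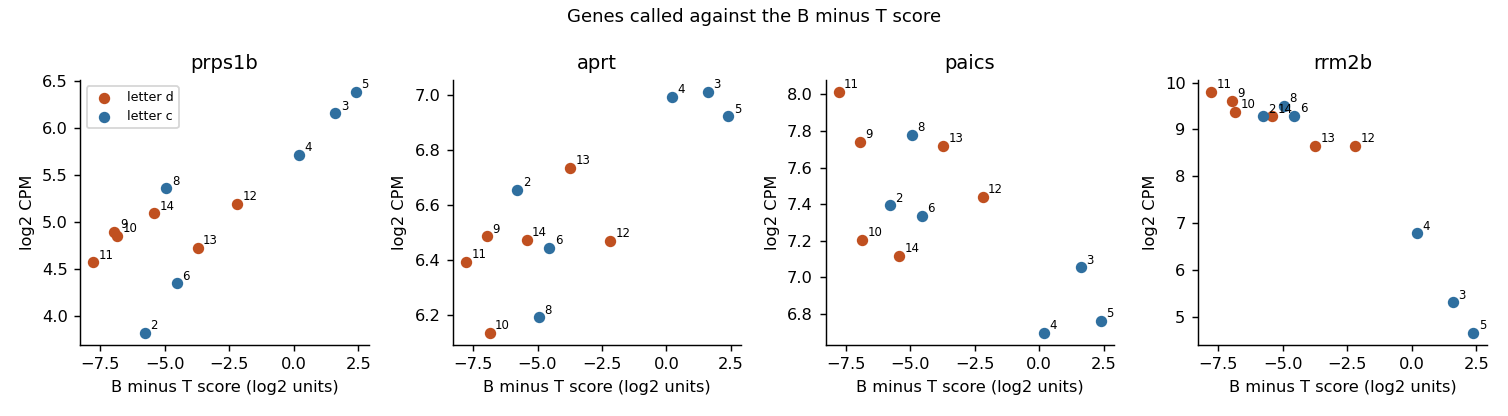
Log2 CPM of prps1b, aprt and paics, and of rrm2b from the wider pathway, against the B minus T score (log2 units), each point a library with its number (orange letter d, blue letter c). The libraries hMYC-5, hMYC-3 and hMYC-4 at the right have the highest prps1b, 5.72 to 6.39, and the lowest rrm2b, 4.67 to 6.78.

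In the wider pathway, a list of 93 further symbols for kinases, nucleotide breakdown, transport, and the folate and glycine cycles, 66 were matched and 47 passed the filter. Of these 47, 6 (12.8%) were called against the B minus T score, 4 upward and 2 downward, again near the 13.2% of all genes. The gene rrm2b encodes the small subunit of ribonucleotide reductase that serves cells outside S phase and is induced by p53 in mammals. It had 298, 455 and 1145 counts in hMYC-5, hMYC-3 and hMYC-4, against 3741 (hMYC-2) to 10431 (hMYC-9) in the others, and its levels of 4.67, 5.32 and 6.78 there lay below the 8.65 to 9.80 elsewhere. The slope was -1.64 ± 0.21 (edgeR, adjusted p = 0.00022), with -1.63 when the letter was a covariate (adjusted p = 0.0013), -0.71 within letter d (adjusted p = 0.372) and -2.01 within letter c (adjusted p = 0.0049). The small subunits thus differed: RRM2 ENSDARG00000078069 was called with proliferation and not with the B score, and rrm2b with the B score and not with proliferation, a difference between genes that was not itself tested.

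The nucleoside diphosphate kinase gene nme3 fell too, with 5.06, 5.53 and 5.53 in hMYC-5, hMYC-3 and hMYC-4 and 6.10 to 7.92 elsewhere, and a slope of -0.81 ± 0.13 (edgeR, adjusted p = 0.0011). Upward, gcshb, a carrier protein gene of glycine cleavage, had 312, 322 and 46 counts in hMYC-5, hMYC-3 and hMYC-4 and 0 to 34 elsewhere, and a slope of 2.60 ± 0.38 (edgeR, adjusted p = 0.00064). The glycine cleavage gene amt, with only 1 to 78 counts, had a slope of 0.95 ± 0.24 (edgeR, adjusted p = 0.019), and the adenylate kinase gene ak1, with 8 to 221 counts, one of 0.93 ± 0.27 (edgeR, adjusted p = 0.039). The call of ak1 held in 10 alternative settings and was lost in 12. Against the proliferation score 1 of the 47 was called (2.13%, beside 1.58% of all genes), slc29a2, a nucleoside transporter gene named here because it was the sole call, with 143 counts in hMYC-4 and 2396 in hMYC-8 and a slope of 0.94 ± 0.09 (edgeR, adjusted p = 0.0001). The call was lost without hMYC-4 and hMYC-8 (slope 1.13, adjusted p = 0.095) and within letter d (0.95, adjusted p = 0.229), and held within letter c (0.94, adjusted p = 0.029).

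Between the letters, edgeR's quasi-likelihood test called 0 of 29 genes, beside 0.344% of all genes, and 5 had an unadjusted p under 0.05 (17.2%, beside 20.4% of all genes). In 0 of 29 did the letters fail to overlap, beside 2.23% of all genes. DESeq2 called 3 of 29, phgdh higher and impdh2 and gmps lower in letter d, beside 8.48% of all genes. The level of phgdh was 3.69 ± 2.48 in letter d and 0.05 ± 1.16 in letter c (SD, n = 6 each), with a fitted log2 fold change of 5.30 ± 1.25 (SE; edgeR, adjusted p = 0.088). It ranged from 1.44 to 2.56 in the 4 libraries of letter d other than hMYC-13 and hMYC-14, against -1.83 to 1.59 in letter c, so the letters overlapped. For gmps the levels were 6.26 ± 0.25 in letter d and 7.03 ± 0.49 in letter c (SD, n = 6 each), with a fold change of -0.82 ± 0.22 on the log2 scale (edgeR, adjusted p = 0.102), and for impdh2 6.07 ± 0.38 in letter d and 7.02 ± 0.76 in letter c (SD, n = 6 each), with -1.08 ± 0.33 (edgeR, adjusted p = 0.123).

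Across the 22 pairs of neighbouring enzymes or paralogs listed, 13 could be computed, 8 of them without clusters and adjusted together, and the 3 relations given above passed by both r and rho. The remaining 5 had r of -0.13 (ppat and paics) to 0.582 (gart and atic, permutation p = 0.047, adjusted p = 0.095). The pair hprt1 and aprt passed by rho alone. Its rho was 0.678, with a permutation p of 0.020 and an adjusted p of 0.039, while its r was 0.349, with a permutation p of 0.266 and an adjusted p of 0.426. No pair of purine ring enzymes was among those that passed over the 12 libraries. For pfas and gart, where hMYC-10 lies apart, r over the other 11 libraries was -0.0019 (permutation p = 0.996). It was 0.876 within letter d, hMYC-10 included (exact permutation p = 0.0014), and -0.45 within letter c (exact permutation p = 0.374).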

How the data were processed

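Per the labels' protocols, Trizol RNA went into stranded poly(A) libraries. The authors deposited whole-number read counts per Ensembl gene. The submitters' processing notes name bcl2fastq, STAR, Picard, featureCounts and the build GRCz10; versions, annotation and use of strand are not given in the sources used here, so overlapping and antisense genes and close paralogs are uncertain. A gene name table paired 26269 of 32105 identifiers (81.8%) with names. The members and lists were chosen with earlier results of these data known.

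Counts were fitted in edgeR 4.0.16 (limma 3.58.1, R 4.3.3) with TMM factors, filterByExpr by letter (13663 genes), the two-sided quasi-likelihood test and Benjamini-Hochberg adjustment over all genes at 0.05, with each score scaled to 1 SD; standard errors came from the slope and its F value. Pairs used 100000 permutations, or all 720 within a letter. Clusters meant a gap of 0.4 of a gene's range, and this limit was not applied within a letter. Named were genes called in a fit, the 6 largest and 4 smallest SDs, cad, pairs past the threshold, and of the wider list the 5 largest called B minus T slopes and SDs above 2. Alternatives were DESeq2 1.42.0, other scalings, filters and prior counts, covariates, each library left out and hMYC-1 included. The scripts were tested on simulated data. Python 3.11.15, numpy 2.4.6, pandas 2.3.3, scipy 1.17.1 and matplotlib 3.10.9 were used.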

Additional observations from a re-analysis of the deposited data

How the results depend on the processing

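The number of members called changed with the processing. Against the B minus T score it was 3, and 5 with DESeq2, 1 with the letter as a covariate, 1 with the B score alone, 0 within letter d, 3 within letter c, and 1 to 3 with each library left out. Against the proliferation score it was 3, and 7 with DESeq2, 0 within letter d, 0 within letter c, 0 without hMYC-4 and hMYC-8 (chosen after seeing the data), and 0 to 3 with each library left out. Against the ribosome biogenesis score it was 1, and 0 with library totals, upper quartile scaling, no filter, the letter as a covariate, within letter d or within letter c, and 0 to 1 with each library left out. Between the letters it was 0, and 3 with DESeq2. The pairs past the threshold numbered 3, and 5 with a prior count of 0.5, DESeq2 size factors or hMYC-1 included, and 1 to 3 with each library left out. The pairs added there were phgdh with psat1 and with shmt2, whose libraries had just counted as clustered, with a widest gap of 0.401 of the range against a limit of 0.4, and with the prior count of 0.5 r was 0.833 and 0.825. Without hMYC-8 or hMYC-10 the pair impdh2 and gmps left the count because its libraries then counted as clustered. The same held for mthfd2 and mthfd1l without hMYC-2. The cause of the other changes was not tested. No slope or relation that passed its test over the 12 libraries changed direction in the settings run. Departures past 1 log2 unit numbered 83, and 80 to 87 under other scalings and the lower prior count. No paired analysis was possible because all libraries belong to 1 group and share no replicate numbers. Within a letter 6 libraries limit every test, and genes with few counts, such as phgdh in hMYC-6 (1 count), have uncertain levels at the low end.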

Other observations

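Of the wider list, the genes with an SD above 2 that passed the filter were gcshb (2.56), dmgdh (2.57), which encodes the mitochondrial dimethylglycine dehydrogenase, and mthfsd (2.12), a gene named for its likeness to a folate enzyme. The gene dmgdh had 252 counts in hMYC-8, 245 in hMYC-6 and 196 in hMYC-9, against 0 to 79 in the other 9 libraries. Those 3 libraries include both the highest (hMYC-8) and the second lowest (hMYC-6) proliferation score. The gene mthfsd had 146, 108 and 91 counts in hMYC-3, hMYC-5 and hMYC-4, against 0 to 58 elsewhere, with a slope of 1.16 ± 0.42 log2 units per SD of the B minus T score (edgeR, adjusted p = 0.089).

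The gene sardh, for the dehydrogenase that follows dmgdh in choline breakdown, did not pass the filter and was named after its values were seen. It had 585, 322, 211 and 103 counts in hMYC-3, hMYC-4, hMYC-5 and hMYC-12, the 4 libraries with the highest B minus T score, against 0 to 27 in the other 8. Also named after their values were seen were asns and aldh1l2. Asparagine synthetase, asns, was highest in hMYC-13 (8.2 log2 CPM) and hMYC-14 (8.05), against 6.22 to 7.85 elsewhere. The mitochondrial folate enzyme gene aldh1l2 was highest in hMYC-13 (7.52), while hMYC-14 (6.37) was level with the top of the 4.26 to 6.36 elsewhere. How many genes of the wider list were high in hMYC-13 or hMYC-14 was not counted. The methyltransferase gene gnmt, likewise named after its values were seen, had its highest levels in hMYC-13 (5.86), hMYC-2 (5.52) and hMYC-14 (5.15), against 1.49 to 4.22 in the others.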
